A study of Rattus norvegicus with 8 samples.

Results

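Neurotrophins are secreted growth factors that neurons use to survive, to extend processes and to adjust their synapses, and the 6 genes described here encode 3 of these ligands and 3 of their receptors. They were Bdnf (brain-derived neurotrophic factor), Ntf3 (neurotrophin 3) and Ntf4 (neurotrophin 4, named Ntf5 on the array) among the ligands, and Ntrk2 (TrkB), Ntrk3 (TrkC) and Ngfr (the p75 neurotrophin receptor) among the receptors. Every probe whose gene name was one of these was taken, which gave 8 of the 41012 probes on the array. Bdnf and Ntrk2 had 2 probes each and the other 4 genes had 1 each.

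RNA was measured in pyramidal neurons of the CA3 hippocampus, captured by laser from 10 µm sections of frozen rat brain stained with Fluoro-Jade, a dye that marks degenerating neurons. The rats were male Sprague-Dawley rats, and there were 4 groups with 2 arrays each. Naive rats had no operation and sham rats had a sham injury 24 hours before the brain was removed. Surviving neurons (Fluoro-Jade negative) and dying neurons (Fluoro-Jade positive) came from rats 24 hours after a moderate fluid percussion injury, in pools of about 600 neurons. A pool held neurons of several rats. Surviving neurons were taken beside dying ones, so both kinds came from the same injured brains, but which rats made up each pool is not given. The p-values therefore measure the spread between pools, each of which averages over animals, and the staining at 1 time point stands in for the fate of a neuron. The number of arrays limits the precision.

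In the hippocampus, BDNF is made largely by excitatory neurons, and its transcription follows synaptic activity. BDNF and neurotrophin 4 bind TrkB, while neurotrophin 3 binds mainly TrkC. Trk receptors are tyrosine kinases that signal through the Ras and MAP kinase, PI3 kinase and phospholipase C gamma routes, which serve survival and plasticity. The p75 receptor binds all neurotrophins and, together with sortilin, their uncleaved precursors, a pairing known to promote the death of neurons.

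Bdnf has several promoters, each before an exon of its own, and one of them carries a well known element for the transcription factor CREB. In the RefSeq annotation of the rat (build GRCr8), 10 start-site windows were found for 3 of the 6 genes: 6 for Bdnf, 3 for Ntf3 and 1 for Ntf4. The windows were not all separate, since some of those of Bdnf and some of those of Ntf3 overlapped. The 5 letters CGTCA, or their reverse complement, the core of the cAMP response element that CREB binds, were sought in the 250 bases before each start. They were present in 1 of the 10 windows, against 18.2% of 33469 windows of all genes. The window that holds them lies before the Bdnf start that follows chr3:116637738-116637857 on the plus strand, with the first letter at position -35 counted from the start. Its last 120 bases, 5′ to 3′, are given because Bdnf carried the largest difference among the 6 genes, with the 5 letters in capitals.
Bdnf start-site window: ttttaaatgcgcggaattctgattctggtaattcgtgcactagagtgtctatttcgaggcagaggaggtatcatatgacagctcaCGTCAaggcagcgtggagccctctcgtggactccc
The match is a description of these letters, and no probe on the array was assigned to a promoter here.

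Signals are given as the log2 of the processed signal of a probe over the median of its array, so that 0 is the median of an array and 1 is a doubling. A probe entered the test of a comparison if both replicates of either group were well above background. Scaling by the array median moved the whole distribution: among all probes tested, the median difference was 0.15 for surviving minus dying, -0.43 for surviving minus sham, -0.47 for dying minus sham and 0.41 for sham minus naive. A difference of a gene is to be read against these values. The arrays of surviving and dying neurons lay on 1 slide and those of naive and sham rats on another, each slide with a scan of its own. In a comparison with sham, injury and slide cannot be told apart, and a term for the slide could not be added to the model. The comparisons within a slide were surviving minus dying and sham minus naive.

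The pools carried the markers of pyramidal neurons. Of 10 marker genes, 9 were on the array and 7 of these were well above background on all 8 arrays. The most abundant on all arrays but dying replicate 1, where Cck was, Nrgn (neurogranin, a postsynaptic protein of excitatory neurons), had a signal of 4399 and 6667 (naive), 8554 and 7744 (sham), 5254 and 5515 (surviving) and 2932 and 2889 (dying) times the array median. The replicates of a group correlated over 15250 probes with r = 0.966 in naive, 0.985 in sham, 0.976 in surviving and 0.892 in dying neurons, so the dying pools were the least alike. On the naive replicate 1 array, 734 spots were marked non-uniform, and between 6 and 114 on the others.

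Bdnf was the ligand with the clearest order among the groups. Its 10-spot probe, A_44_P437896, had log2 signals of 2.16 and 2.47 (naive), 3.01 and 2.92 (sham), 0.71 and 0.41 (surviving) and -1.09 and -1.04 (dying). No group overlapped with another, and the level descended from sham through naive and surviving to dying neurons. Such separation was common on the array. Of all probes with a value, 54.3% lay lower in surviving than in sham neurons without overlap, and 49.1% lower in dying neurons. In sham minus naive, 45.1% lay higher in sham without overlap. The group means of Bdnf were 2.31 ± 0.22 (SD, n = 2) in naive, 2.97 ± 0.07 in sham, 0.56 ± 0.21 in surviving and -1.07 ± 0.04 in dying neurons. The step from sham to naive (0.65) was the smallest of the 3 between neighbours, larger than either group's SD but not past the threshold in limma (adjusted p = 0.851). The 10 spots lay close together in the controls, where their processed signals ran from 125 to 143 and from 117 to 137 on the sham arrays. On the dying arrays they ran from 3.18 to 13.6, with 6 of 10 spots well above background, and from 11 to 34.6, with 8 of 10. The dying level thus lay near the limit of detection.

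Against sham, Bdnf on this probe fell by 2.41 in surviving neurons (SE 0.43, limma adjusted p = 0.0134) and fell by 4.04 in dying neurons (SE 0.44, adjusted p = 0.000998), with both arrays of each group lower. With array median scaling these are 5.31-fold and 16.4-fold lower signals, well beyond the median of all probes. The size depended on the scaling. With quantile normalization the differences were -1.90 and -3.71, where the medians of all probes were 0.18 and 0.21. Both calls were kept under each of 5 other scalings of the arrays. The call in dying neurons was also kept when any 1 of its 4 arrays was left out, whereas the call in surviving neurons was lost with each of them, at adjusted p from 0.0912 to 0.135. Between surviving and dying neurons, on 1 slide, the difference was 1.63 (SE 0.44, adjusted p = 0.130), or 3.09-fold higher in surviving neurons, and it did not pass the threshold. With only those 2 groups in the model, the adjusted p was 0.250.

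The other Bdnf probe, A_44_P219026, with 1 spot, gave the same order for dying neurons but not for surviving neurons. Its log2 signals were 0.34 and 1.28 (naive), 0.72 and 0.97 (sham), 1.33 and 0.52 (surviving) and -1.55 and -1.21 (dying). Naive, sham and surviving arrays overlapped, with means within 0.08 of their neighbours, and both dying arrays lay below all the others, 1 of them not well above background. Bdnf fell by 2.23 in dying against sham neurons on this probe (SE 0.53, adjusted p = 0.0122), and the difference of surviving minus sham was 0.08 (SE 0.53, adjusted p = 0.930). Which of the transcripts of Bdnf each probe reads was not analysed here, so the disagreement in surviving neurons stands as measured. Surviving minus dying was 2.30 (SE 0.53, adjusted p = 0.118), the largest difference in favour of surviving neurons on a probe that most arrays detected. Without dying replicate 2 it was 2.47 and passed (adjusted p = 0.0351), but so did 5636 of 28209 probes (20%), and the dying array that remained did not detect this probe. The dying minus sham call was lost without dying replicate 1 (adjusted p = 0.0511) or either sham array (0.0733 and 0.0789).

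Ntf3, whose product acts mainly through TrkC, was lower on the slide of injured rats than on that of uninjured rats. Its log2 signals were 2.09 and 1.16 (naive), 0.74 and 1.86 (sham), -1.01 and -1.30 (surviving) and -2.49 and -1.33 (dying). Naive and sham arrays overlapped and all 4 arrays of injured rats lay below them, with dying replicate 1 not well above background. The means were 1.63 ± 0.66 (SD, n = 2) in naive, 1.30 ± 0.79 in sham, -1.15 ± 0.20 in surviving and -1.91 ± 0.82 in dying neurons. Surviving and dying neurons, neighbours in this order, differed by 0.75, which is less than the SD of the dying pools (adjusted p = 0.525).

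Against sham, Ntf3 fell by 2.46 in surviving (SE 0.63, adjusted p = 0.0342) and fell by 3.21 in dying neurons (SE 0.62, adjusted p = 0.00597), on both arrays of each group. The call in surviving neurons was lost under 3 of 5 other scalings: the 75th percentile (-1.68, adjusted p = 0.146), the median of probes detected on all arrays (-1.48, adjusted p = 0.190) and the series table (-1.57, adjusted p = 0.150). It was also lost with any 1 of the 4 arrays left out. In dying neurons the call was kept under 5 of 5 other scalings and lost without sham replicate 2 (-2.65, adjusted p = 0.0513). Sham minus naive was -0.32 (adjusted p = 0.894), within the spread of the pools.

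Ntf4, the second ligand of TrkB, was dim. Its log2 signals were 0.40 and -2.86 (naive), -2.37 and -1.31 (sham), -0.10 and 1.91 (surviving) and -0.25 and -3.06 (dying). It was well above background on both surviving arrays, on 1 naive and 1 dying array, and on no sham array. The surviving mean, 0.91 ± 1.42 (SD, n = 2), was the highest, and the 3 other means, -1.23 in naive, -1.66 in dying and -1.84 in sham neurons, differed by less than their SDs. Because no sham array was well above background, the level in surviving neurons is given as a bound, at least 2.19-fold higher than in sham (adjusted p = 0.159). The bound sets the surviving mean against the lowest signal well above background on each sham array. It rests on surviving replicate 2 (4.40-fold alone), since replicate 1 alone gives 1.09-fold. Surviving minus dying was 2.56 (SE 1.27, adjusted p = 0.289). With only surviving and sham neurons in the model, Ntf4 passed against sham, as did 45.3% of all probes, and it entered that test through the surviving arrays alone.

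**Figure D1:**
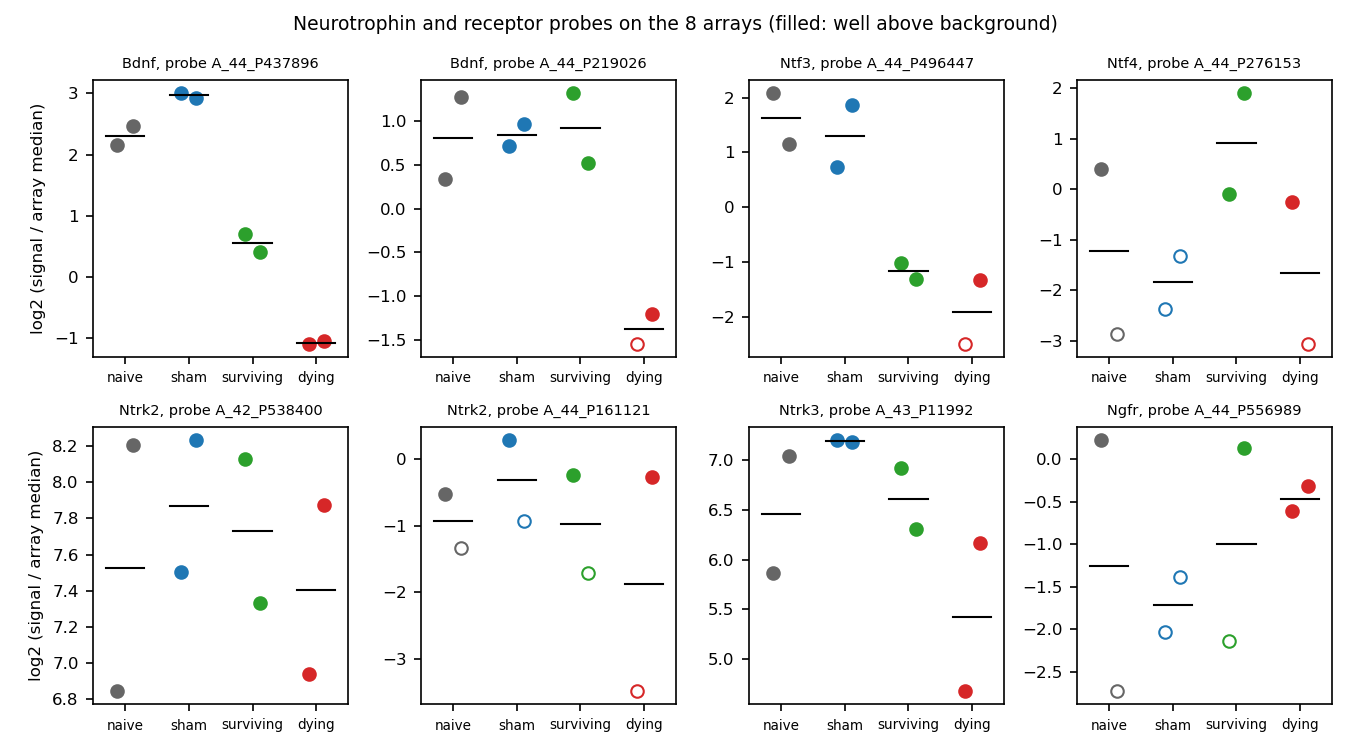
Log2 signal over the array median (vertical axis) of the 8 probes on each of the 2 arrays of naive, sham, surviving and dying neurons, with a bar at each group mean and open points where a probe was not well above background. Bdnf on A_44_P437896 runs from 3.01 in sham to -1.09 in dying neurons without overlap, while the Ntrk2 probe A_42_P538400 overlaps in all groups.

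Among the receptors, Ntrk2 gave a strong signal with no order among the groups. On its 10-spot probe, A_42_P538400, the log2 signals were 6.84 and 8.21 (naive), 7.51 and 8.24 (sham), 8.13 and 7.33 (surviving) and 6.94 and 7.87 (dying). Every group overlapped with every other, and neighbouring means were at most 0.20 apart, against SDs from 0.52 to 0.97. The difference was 0.32 for surviving minus dying (SE 0.65, adjusted p = 0.809), -0.14 for surviving minus sham (adjusted p = 0.893) and -0.47 for dying minus sham (adjusted p = 0.565). With 75th percentile scaling the differences from sham were 0.64 and 0.25, where the medians of all probes were 0.35 and 0.25, so their sign followed the common shift. A difference of this size cannot be read from 2 arrays a group, and a p above the threshold does not show that TrkB transcripts were equal. The other Ntrk2 probe, A_44_P161121, was detected on 1 array per group, between -3.49 and 0.29, and was tested in no comparison. Full-length and truncated TrkB were not told apart here.

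Ntrk3, the receptor of neurotrophin 3, was also strongly detected. Its log2 signals were 5.87 and 7.04 (naive), 7.21 and 7.18 (sham), 6.92 and 6.31 (surviving) and 4.67 and 6.17 (dying). Both dying arrays lay below both sham and both surviving arrays, while the naive arrays overlapped with surviving and dying neurons. Of all probes, 49.1% lay lower in dying than in sham neurons without overlap, and 22.6% lower in dying than in surviving neurons. The means of Ntrk3 were 7.19 ± 0.02 (SD, n = 2) in sham, 6.61 ± 0.43 in surviving, 6.46 ± 0.83 in naive and 5.42 ± 1.06 in dying neurons. Dying minus sham was -1.77 (SE 0.64, adjusted p = 0.0531), just short of the threshold. It was -1.02 without dying replicate 1 and -2.52, past the threshold (adjusted p = 0.0154), without dying replicate 2. It also passed when naive replicate 1, the array with most non-uniform spots, was left out of the model, a choice made after seeing the data (adjusted p = 0.0465). With quantile normalization it was -0.55 (adjusted p = 0.474). Surviving minus dying was 1.19 (SE 0.65, adjusted p = 0.330), and surviving minus sham was -0.58 (adjusted p = 0.543). With 75th percentile scaling the latter was 0.20, below the median of all probes (0.35) as before.

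Ngfr, the p75 receptor, was dim, and several arrays did not detect it. Its 10-spot probe had log2 signals of 0.23 and -2.73 (naive), -2.04 and -1.38 (sham), -2.14 and 0.14 (surviving) and -0.61 and -0.32 (dying). It was well above background on both dying arrays, on 1 naive and 1 surviving array and on neither sham array. The dying mean, -0.46 ± 0.20 (SD, n = 2), was the highest of the 4, yet naive replicate 1 and surviving replicate 2 each lay above both dying arrays. Surviving minus dying was -0.54 (SE 1.03, adjusted p = 0.80). No size of difference is given against sham, because the lowest detectable signal on the sham arrays was above the dying mean.

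The 6 genes can be set against the whole array. Between surviving and dying neurons, 0 of 7 member probes tested and 0% of all 27391 probes passed in limma, while 5766 of all probes had an unadjusted p under 0.05. On 5 of the 8 member probes the arrays of these groups did not overlap, all with surviving higher. Of all 40784 probes with a value, 22.6% did not overlap with surviving higher and 19.7% with surviving lower. For surviving minus sham, 2 of 6 probes tested passed (Bdnf and Ntf3, both lower), against 17.8% of 26905 probes, 6.48% higher and 11.3% lower. For dying minus sham, 3 of 6 passed (both Bdnf probes and Ntf3, all lower), against 43.3% of 25623 probes, 14.7% higher and 28.6% lower. Sham minus naive gave 0 of 5 and 0% of 20676 probes, with 1005 at an unadjusted p under 0.05. With dying neurons near the array-wide share, the counts alone set these genes apart in neither comparison with sham, and both comparisons share the sham arrays.

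The split of the whole array into higher and lower calls depended on the scaling. Of the calls for surviving minus sham, 36.4% were higher with the array median and 73.0% with the 75th percentile. For dying minus sham these shares were 33.9% and 59.2%. With the median of probes well above background on all 8 arrays they were 80.0% and 68.6%. Bdnf on both probes and Ntf3 were lower in dying than in sham neurons, and past the threshold, under each of these scalings. The calls also depended on the background correction. With normexp correction (offset 50) 0 probes of the array passed in limma in surviving or dying against sham neurons, where 2494 and 2342 had an unadjusted p under 0.05. Bdnf on A_44_P437896 was then at -1.43 in dying minus sham (adjusted p = 0.519). That fit rested on few spots: its background mean was -535.6 on naive replicate 1 and -298.3 on dying replicate 1, and -1.677 and 2.772 with 5 spots far below their background left out. Without them, a choice made after seeing the data, 2574 and 7243 probes passed. The 10-spot Bdnf probe passed in both comparisons, while A_44_P219026 (-0.55, adjusted p = 0.165) and Ntf3 (-0.78, adjusted p = 0.0841) did not pass in dying neurons.

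**Figure D2:**
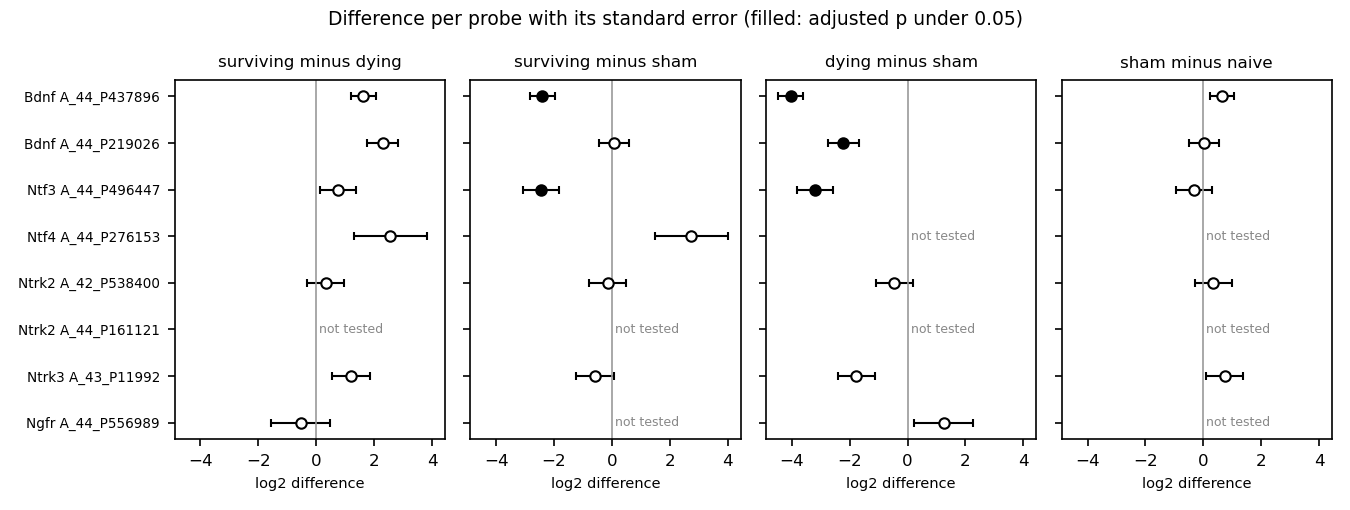
Log2 difference (horizontal axis) of each probe in the 4 comparisons, with bars of 1 standard error from limma and filled points where the adjusted p was under 0.05. Both Bdnf probes and Ntf3 lie below 0 in dying minus sham, at -4.04, -2.23 and -3.21, no probe is filled within a slide, and the points of Ntf4 and Ngfr against sham, which neither sham array detected, have no measured size.

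**Figure D3:**
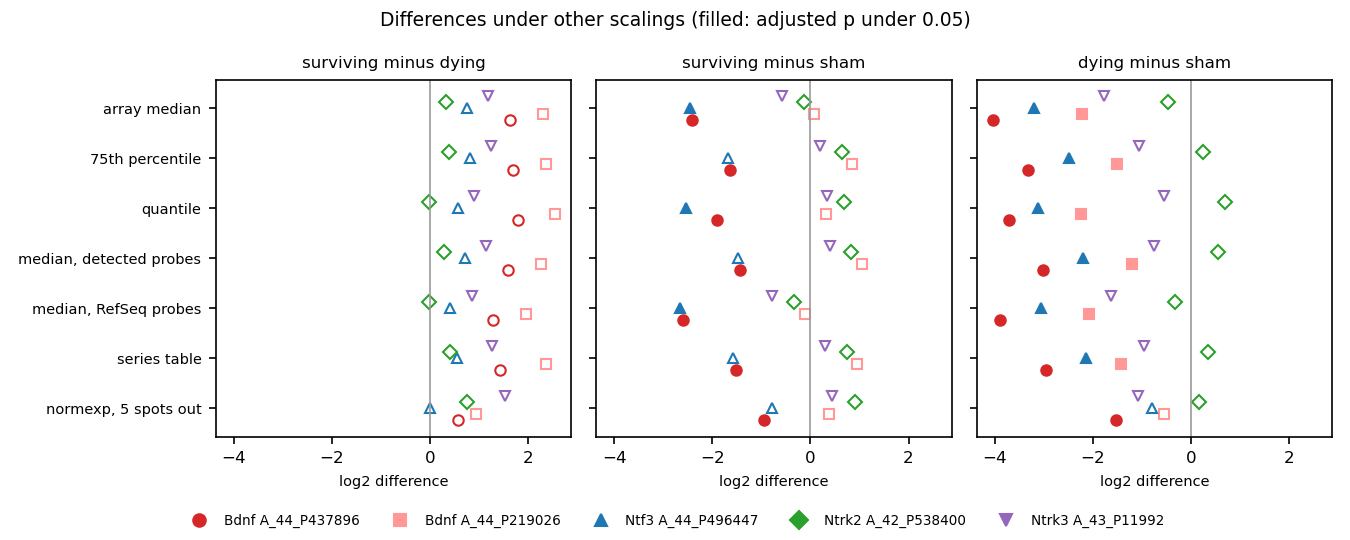
Log2 differences (horizontal axis) of 5 probes in 3 comparisons under the array median and 6 other scalings or background corrections (vertical axis), filled where the adjusted p was under 0.05. Bdnf and Ntf3 stay below 0 in dying minus sham, whereas Ntrk2 lies on both sides of 0.

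The methods of the study filtered genes by the likeness of replicates and by a fold relative to sham, without a test. The paper also compares dying with surviving neurons by fold. Here a filter on replicates and fold was applied to surviving over dying neurons. Kept were probes well above background on all 4 arrays of surviving and dying neurons, with replicates within 1.5-fold of each other in each group. Their mean signals also had to differ more than 2-fold in either direction. Of 5691 probes that met the first conditions, 1056 (18.6%) passed, and 604 (10.6%) were higher in surviving neurons. Among the 8 member probes only the 10-spot Bdnf probe met the conditions on replicates and background, and it passed with a signal 3.11 times higher in surviving neurons. With normexp the ratio of this probe was 1.40, and 1.49 without spots far below their background, and it passed under neither. The Ntrk3 probe, with a ratio of 2.06, missed the filter because its replicates differed 1.52-fold in surviving and 2.82-fold in dying neurons. The filter has no p, and keeps probes whose replicates are alike.

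The genes around the neurotrophins were read from 5 lists with 86 genes, of which 81 were on the array, each gene from its brightest probe. Between surviving and dying neurons 0 of 65 genes tested passed in limma, and 51 of the 65 differences were above 0, with a median of 0.66 beside 0.15 for all probes tested. With the median of RefSeq probes 37 were above 0, with a median of 0.31 beside -0.19 for all probes. Scaling by 1 value for each array moves all probes alike, so the sign of a difference follows it, while the place of the list relative to all probes does not. For surviving minus sham 7 of 65 (10.8%) passed, 2 higher and 5 lower, with a median of -0.66 beside -0.43. For dying minus sham 28 of 61 (45.9%) passed, 4 higher and 24 lower, with a median of -1.32 beside -0.47. Sham minus naive gave 0 of 60, with a median of 0.58 beside 0.41. The share of calls was thus near that of the whole array in dying neurons and below it in surviving neurons. With 75th percentile scaling the calls were 7 higher and 15 lower in dying and 6 higher and 0 lower in surviving neurons. The list medians were then -0.60 beside 0.25 and 0.11 beside 0.35 for all probes, so the lists stayed below all probes while the signs in surviving neurons turned with the common shift. None of the 7 calls in surviving neurons was kept when any 1 of the 4 arrays was left out. In the same way the number called ran from 5 to 33 in dying against sham neurons and from 0 to 17 in surviving minus dying, so single arrays decided it. Shares of the lists below are to be read beside the 43.3% of all probes called in dying against sham neurons.

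Some of the genes that process and sort the ligands were lower in dying than in sham neurons. Furin (-0.82, limma adjusted p = 0.240) and Sorcs3 (-0.38, adjusted p = 0.690) did not pass. Of 12 such genes and remaining receptors, 11 were on the array and 8 were tested, and 5 fell in dying against sham neurons, with none higher and a median of -2.08. That is 62.5% of those tested, beside 43.3% of all probes, and between 3 and 5 fell under the other scalings. Pcsk1 and Pcsk2, convertases that cleave prohormones in secretory granules, both fell, with differences of -3.81 (SE 0.55, adjusted p = 0.00243) and -3.45 (SE 0.61, adjusted p = 0.00445). Cpe, carboxypeptidase E, which trims peptides and helps to sort BDNF into the regulated secretory route, fell by 3.04 (SE 0.62, adjusted p = 0.00727). The calls of these 3 genes were kept under 5 of 5 other scalings, and that of Cpe was lost without sham replicate 1. The Cpe call was also lost with normexp without spots far below their background (limma adjusted p = 0.0534). Pcsk1 was also the 1 gene of this list past the threshold in surviving against sham neurons, where it fell by 2.02 (adjusted p = 0.0411), a call lost under 4 of 5 other scalings. All 8 differences of surviving minus dying were above 0, with a median of 1.40, and the smallest p-values were those of Pcsk2 (2.23, adjusted p = 0.132) and Pcsk1 (1.79, adjusted p = 0.145).

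Adaptors and effectors that bind Trk receptors comprised 19 genes, all on the array. In dying against sham neurons 5 of 13 tested (38.5%) fell and none rose, with a median of -1.38, a share below that of all probes. Under 4 of 5 other scalings 1 or 2 rose. They included Sos1, the exchange factor that activates Ras, which fell by 2.69 (SE 0.58, adjusted p = 0.00883), and Itpr1, the receptor through which inositol trisphosphate releases calcium, which fell by 2.31 (SE 0.45, adjusted p = 0.00604). Grb2, the adaptor that carries Sos proteins to the receptor, fell by 2.24 (SE 0.50, adjusted p = 0.00999). In surviving against sham neurons 3 of 15 fell, a share of 20% beside 17.8% of all probes: Sos1 (-2.13, adjusted p = 0.0422), Itpr1 (-1.93, adjusted p = 0.0266) and Kidins220, a scaffold that Trk receptors phosphorylate (-1.77, adjusted p = 0.0332). Each of these 3 calls in surviving neurons was lost under 4 of 5 other scalings, while the 3 named in dying neurons were kept under all 5. Those of Sos1 and Itpr1 in dying neurons were lost without sham replicate 1, and that of Grb2 without either sham array. With the 75th percentile 2 of the 15 were called higher and 0 lower in surviving neurons. With the median of probes well above background on all 8 arrays, or the series table, 3 were called higher and 0 lower. For surviving minus dying the median was 0.71, with Grb2 at 0.71 (adjusted p = 0.451), Plcg1, phospholipase C gamma, at 0.79 (adjusted p = 0.527), and Sh2b2 and Sos2 at -0.33 and -0.24 (adjusted p = 0.708 and 0.828).

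The Ras, MAP kinase, PI3 kinase and CREB list had 25 genes, 23 of them on the array. In dying against sham neurons 9 of 16 (56.2%, beside 43.3% of all probes) passed, 7 lower and 2 higher, with a median of -1.42. The split was 3 lower and 2 higher with the 75th percentile, and 2 lower and 1 higher with quantile normalization. Map2k1 (MEK1), a kinase of the MAP kinase route, fell by 3.39 (SE 0.79, adjusted p = 0.0113), a call lost with quantile normalization and without either sham array. Rps6ka1, a ribosomal S6 kinase at the end of that route, rose by 1.68 (SE 0.51, adjusted p = 0.0283), a call lost without dying replicate 1 or either sham array. Pik3cb, a catalytic subunit of PI3 kinase that no sham array detected, was at least 2.44-fold higher, a call lost with quantile normalization and with 3 of the 4 arrays left out in turn. In surviving against sham neurons 1 of 17 passed, beside 17.8% of all probes: Mapk3 (ERK1), at least 1.26-fold higher, a call lost with the median of RefSeq probes and with each array left out. Pik3cb and Mapk3 were detected on no sham array and entered these tests only through the group where they were high.

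Within the slide, the median of this list was 0.91 for surviving minus dying. Map2k1 differed by 1.92 (adjusted p = 0.221), higher in surviving neurons. Rps6ka1 differed by -1.83 (adjusted p = 0.132), higher in both dying arrays, and Pik3cb by -0.85 (adjusted p = 0.589). Map2k1 thus had the direction of Bdnf and the S6 kinase the opposite one, without a call within the slide.

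The list of p75 partners and effectors had 17 genes, 15 of them on the array. In dying against sham neurons 6 of 13 (46.2%, beside 43.3% of all probes) passed, 5 lower and 1 higher, with a median of -1.24. With quantile normalization 2 were lower and 2 higher, so the lean to lower calls depended on the scaling. Maged1, a protein that binds the intracellular part of p75, fell by 3.67 (SE 0.56, adjusted p = 0.00281), and Mapk8 (JNK1), a stress kinase of the p75 route, fell by 3.0 (SE 0.51, adjusted p = 0.00377). Both were kept under 5 of 5 other scalings and with each of the 4 arrays left out. Rhoa, a small GTPase that p75 activates, fell by 2.28 (SE 0.75, adjusted p = 0.0392), a call lost under 4 of 5 other scalings and with 3 of the 4 arrays left out in turn. Nradd, a death domain protein related to p75, rose by 1.78 (SE 0.48, adjusted p = 0.0193), a call lost without dying replicate 1 or either sham array. In surviving against sham neurons 0 of 13 passed in limma, against 17.8% of all probes, of which 9774 had an unadjusted p under 0.05. Under 4 of 5 other scalings 2 of the 13 were called higher. Between surviving and dying neurons the median was 0.50, from Ripk2, a kinase of the p75 route, at -3.05 (SE 0.89, adjusted p = 0.135, detected on 1 surviving array) to Rhoa. Maged1 was at 1.85 (adjusted p = 0.142), Rhoa at 2.02 (adjusted p = 0.191), Nradd at -0.41 (adjusted p = 0.660) and Arhgdia, a GDP dissociation inhibitor, at -0.26 (adjusted p = 0.793).

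Genes known to respond to BDNF or to synaptic activity numbered 13, all on the array. In dying against sham neurons 3 of 11 (27.3%, beside 43.3% of all probes) passed, 2 lower and 1 higher, with a median of -0.92. The median was 0.26 with quantile normalization, beside 0.21 for all probes. The split turned to 1 lower and 2 higher with quantile normalization, the median of probes well above background on all 8 arrays and the series table. It was 2 lower and 2 higher with the 75th percentile. Egr1, an immediate early transcription factor, fell by 2.47 (SE 0.50, adjusted p = 0.00684) in dying neurons and fell by 1.81 (SE 0.50, adjusted p = 0.0421) in surviving neurons. Homer1, a scaffold of the postsynaptic density, fell by 1.83 in dying neurons (SE 0.44, adjusted p = 0.0123). The calls of Egr1 in surviving neurons and of Homer1 were lost under 4 and 3 of 5 other scalings, and those of Egr1 and Homer1 in dying neurons without either sham array. Egr3, a relative of Egr1 that no sham array detected, was at least 1.46-fold higher in surviving and at least 1.36-fold higher in dying neurons. It entered the tests only through the groups where it was detected, so its 2 calls carry no weight for a direction of the list. Set against dying neurons, surviving neurons had a median of 0.28, with Homer1 at 1.17 (adjusted p = 0.190), Egr1 at 0.66 (adjusted p = 0.484), Npy, neuropeptide Y, at -1.02 (adjusted p = 0.425) and Nr4a1 at -0.36 (adjusted p = 0.706).

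**Figure D4:**
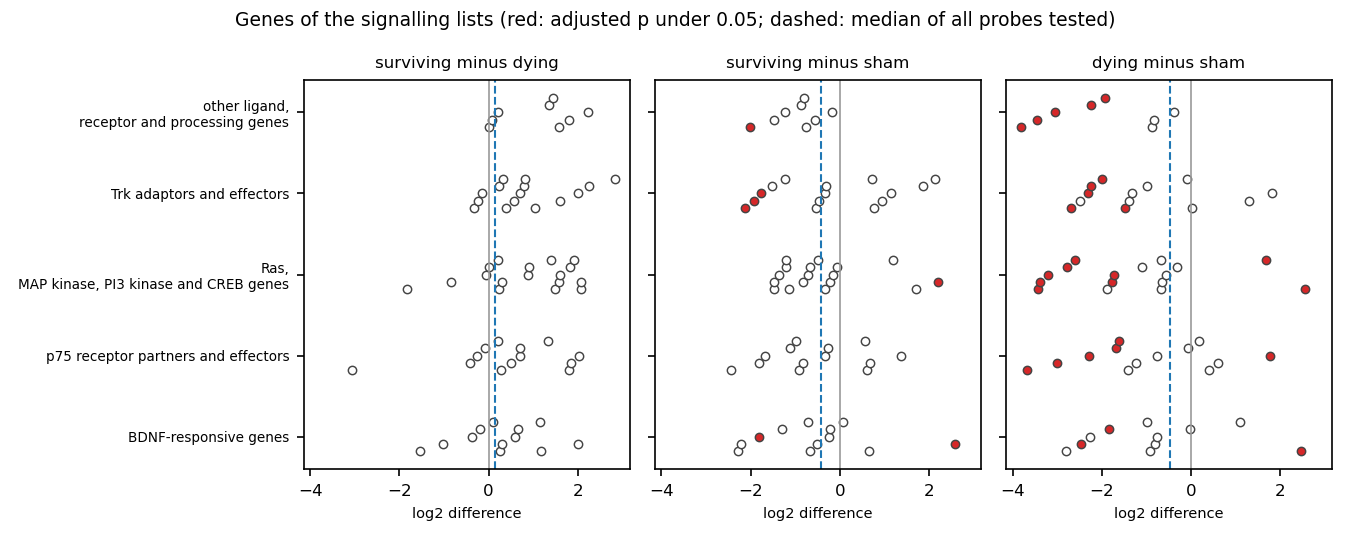
Log2 difference (horizontal axis) of each tested gene of the 5 signalling lists in 3 comparisons, red where the adjusted p was under 0.05, with a dashed line at the median of all probes tested. In dying minus sham most points lie left of the dashed line at -0.47, down to -3.81, and none is red in surviving minus dying.

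The sham operation gave no call in these lists. In sham minus naive, Sort1 (sortilin) was at 1.27 (adjusted p = 0.851), Sorcs3, a relative of sortilin, at 1.20 and Nptx2, a secreted synaptic pentraxin, at 1.43, each also with an adjusted p of 0.851. Other genes picked by the same rule lay between -0.46 and 0.98: Sos2 at 0.98, Sh2b2 at 0.66, Hras at 0.70, Arhgdia at 0.66 and Homer1 at 0.54, with Ptpn11 at -0.02, Akt1 at -0.25, Irak1 at -0.46 and Mapk10 at -0.09. Of the 60 genes, 54 were above 0, on arrays where the median of all probes was 0.41.

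Other cell types moved with the groups. The 15 microglia and macrophage markers had a summed signal of 315 and 607 (naive), 691 and 526 (sham), 702 and 775 (surviving) and 3737 and 1962 (dying) times the array median. Their most abundant gene was Fcgr3, an Fc receptor of phagocytes, at 1081 and 583 in dying neurons against 319 and 198 in sham. In dying against sham neurons 8 of 13 tested rose, beside 14.7% of all probes, and none fell, with a median of 1.88. The pools with the lowest Bdnf and Ntf3 thus had the highest microglial signal, and its part in the results on the 6 genes was not tested.

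The 9 pyramidal neuron markers summed to 6450 and 9657 (naive), 12062 and 10756 (sham), 7760 and 7851 (surviving) and 8005 and 4653 (dying). Nrgn and Cck (cholecystokinin) together made 98.9% of the sum on dying replicate 1, where Camk2a, Grik4, Slc17a7 and Syt1 were lower than on any other array, at log2 signals of 1.74, -1.08, -0.18 and 2.07 against 3.86, 4.96, 2.30 and 4.17 on dying replicate 2. The sum therefore does not speak for all markers. In dying against sham neurons 2 of 8 fell and none rose, with a median of -1.70. In surviving neurons the median was 0.18 and 1 of 8 fell. Lower levels of a neuronal transcript in dying pools, Bdnf included, can come from fewer neurons in the RNA or from less RNA per neuron, and these cannot be told apart.

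Oligodendrocyte markers (10 genes) summed to 1593 and 1475 (naive), 2375 and 2170 (sham), 394 and 460 (surviving) and 1077 and 683 (dying), with 3 of 10 lower in surviving and 4 of 9 lower in dying against sham neurons. Of all probes 11.3% were lower in surviving and 28.6% lower in dying against sham neurons. Astrocyte markers (10 genes, Slc1a3 the most abundant) summed to 848 and 1048 (naive), 1515 and 965 (sham), 506 and 531 (surviving) and 1251 and 577 (dying). Each comparison with sham gave 1 astrocyte marker higher and 2 lower. Endothelial and pericyte markers (7 of 8 genes on the array, Pdgfrb the most abundant on average and Tek not well above background on any array) ran from 62.1 to 140 on 7 arrays and reached 382 on dying replicate 1, with 2 of 5 higher in dying against sham neurons. Interneuron markers (6 genes, Pvalb the most abundant on average) ran from 147 to 452 on 7 arrays and reached 670 on dying replicate 1, where Sst and Vip peaked (log2 signals of 8.48 and 7.83) and Pvalb was at its lowest (5.83), with 2 of 6 lower in dying against sham neurons. Dying replicate 1 therefore stood apart from dying replicate 2 in several cell types, and the part of these markers in the results was not tested.

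**Figure D5:**
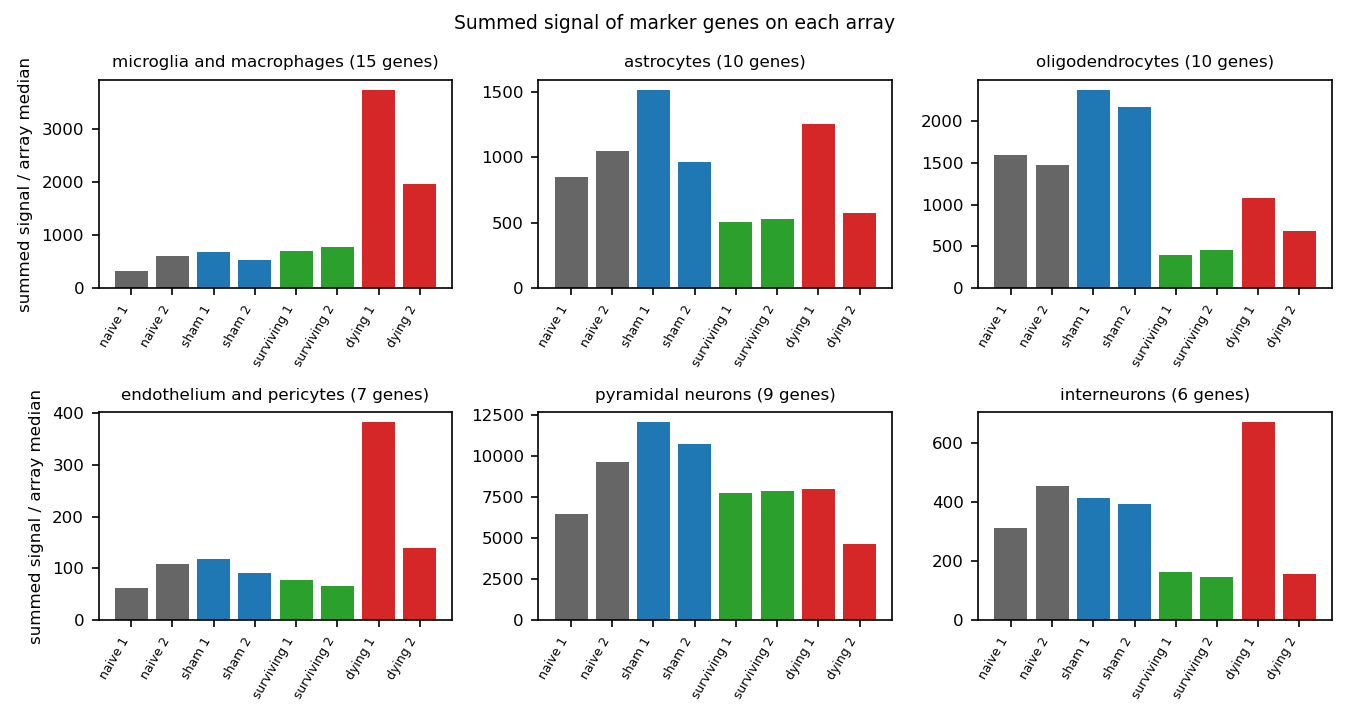
Summed signal over the array median (vertical axis, from 0) of the markers of 6 cell types on each of the 8 arrays. Microglial markers reach 3737 and 1962 on the dying arrays and at most 775 on the others, and endothelial and interneuron markers peak on dying replicate 1.

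The genes whose pattern over the 8 arrays was most like a member's were sought among 7087 probes with a gene symbol and a signal well above background on every array, as a description without a test. The 10-spot Bdnf probe was most like Gprasp1, which sorts internalized G protein-coupled receptors (r = 0.999), Acsl4, an acyl-CoA synthetase of long chains (r = 0.998), and H3f3b, a variant of histone H3 (r = 0.997). Gprasp1 had log2 signals of 5.34 and 5.75 (naive), 6.35 and 5.99 (sham), 3.53 and 3.02 (surviving) and 1.42 and 1.47 (dying), a stepwise pattern like that of Bdnf. Among the genes most like Ntf3 were Psip1 (r = 0.956) and Pja2 (a ubiquitin ligase, r = 0.952). Ntrk2 was most like Ryr2, a calcium channel of the endoplasmic reticulum (r = 0.969), Hnrnph1 (r = 0.962) and Gsk3b (r = 0.961), all of which varied within groups as Ntrk2 did. Ntrk3 was most like Ina, a neuronal intermediate filament (r = 0.992), Ube4b (r = 0.988) and Zfp312 (r = 0.987). The arrays of a correlation share their groups and slides, and Ntf4 and Ngfr were detected on too few arrays for this comparison.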

How the data were processed

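The authors deposited, for each of 8 one-colour Agilent arrays, the processed signal intensity of every spot, made with Agilent Feature Extraction by background subtraction and detrending and not normalized between arrays, with raw mean and local background intensities and marks for spots well above background, saturated (0 spots) or non-uniform. The deposited series table holds the same processed signal over 1 constant for each array, with a floor; its column medians were 0.2175 and 0.149 (naive), 0.131 and 0.149 (sham), 0.256 and 0.259 (surviving) and 0.212 and 0.282 (dying), and the origin of the constant is not given in the sources used here. The paper names MessageAMP II as the RNA amplification kit, and the labels name a further kit beside it without assigning either to pools.

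Here, spots marked non-uniform were dropped, the remaining spots of each probe were averaged, signals were divided by the array median as in the methods of the study (28.8 and 22.7 (naive), 16.5 and 16.4 (sham), 52.4 and 48.3 (surviving) and 19.4 and 53.0 (dying)), floored at 0.01 and put on the log2 scale. The 4 groups were fitted on 8 arrays with limma 3.58.1 in R 4.3.3 (tables made with Python 3.11.15 and pandas 2.3.3), with 4 residual degrees of freedom. Two-sided p-values received the Benjamini-Hochberg adjustment over all probes tested in a comparison, with a threshold of 0.05. The code was tested on simulated data.

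Where neither replicate of a group was detected, the other group's mean over its 2 arrays was set against the mean of, per array, the lowest signal well above background or the signal of the probe itself if higher. Gene names came from the files, or by RefSeq accession from the annotation for 10735 of 41012 probes; 144 of 151 list genes were on the array, 9 found by accession alone. In each list and comparison, up to 3 genes past the threshold in each direction were named by size, or, where none passed, up to 2 in each direction with the smallest p among genes detected on all 4 arrays. Not all genes picked this way, nor all of the closest patterns, are described. Members and lists were chosen with earlier results of these data known. Alternatives were other scalings, normexp background correction, filters, the samples in the fit, the replicate number as a block and single arrays left out.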

Additional observations from a re-analysis of the deposited data

How the results depend on the processing

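Each value was recomputed with 1 choice changed. Some alternatives were chosen after seeing the data: normexp without spots far below their background, naive arrays without replicate 1 and crossed pairing. Of the member values, 493 kept direction and call, 23 lost a call, 5 gained one and 47 turned sign, and of the values of named pathway genes 859, 136, 7 and 23 did. Where a group kept 1 array, it was assumed to vary like the other groups. The cause was not tested.

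Probes called were, for surviving minus dying, 4 with the median of RefSeq probes, 2 with the series table and 0 to 5636 with 1 array left out; for surviving minus sham, 0 with normexp, 2574 with the added normexp, 2865 with detection on all arrays, 12191 with only the 2 groups and 289 to 527 with 1 array left out. They were, for dying minus sham, 0 with normexp, 7243 with the added normexp, 7039 with detection on all arrays and 2992 to 13114 with 1 array left out; for sham minus naive, 1 with quantile normalization, 1 with RefSeq probes and 292 with only the 2 groups. The filter of the methods kept 303 probes with normexp, 2451 with the replicate rule loosened to 50% and 6462 with no filter on replicates. Pathway genes called with 1 array left out were 0 to 17 (surviving minus dying), 0 to 0 (surviving minus sham) and 5 to 33 (dying minus sham).

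With the replicate block, probes called were 0, 3359, 10333 and 0 in the order above. Replicate deviations of surviving and dying pools correlated with r = -0.194, and those of the other pairs of groups with -0.061 to 0.071. With crossed pairing of surviving and dying pools 0 probes were called and 5532 had an unadjusted p under 0.05.

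Bdnf A_44_P437896 was at -0.94 (surviving minus sham) and -1.43 (dying minus sham) with normexp, and at -2.56 to -2.26 in surviving minus sham with 1 array left out, where the calls were lost. Bdnf A_44_P219026 was, in surviving minus sham, -0.12 with RefSeq probes and -0.33 to 0.48 with 1 array left out; in dying minus sham, -0.46 with normexp and -0.55 with the added normexp, the call being lost under both, and -2.40 to -2.06 with 1 array left out; in surviving minus dying, 1.90 to 2.71 with 1 array left out. In sham minus naive it was -0.26 (75th percentile), -0.00773 (quantile), -0.0294 (normexp), -0.16 (added normexp), -0.42 (probes above background on all arrays), -0.00224 (RefSeq probes), -0.32 (series table) and -0.43 to 0.50 with 1 array left out.

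Ntf3 was, in surviving minus sham, -1.68 (75th percentile), -0.78 (normexp), -0.78 (added normexp), -1.48 (probes above background on all arrays), -1.57 (series table) and -3.02 to -1.90 with 1 array left out, the call being lost under each. In dying minus sham it was -0.64 (normexp) and -0.78 (added normexp), the call being lost under both, and -3.79 to -2.63 with 1 array left out; in surviving minus dying -0.14 with normexp; in sham minus naive 0.16 with normexp and -0.88 to 0.24 with 1 array left out. Ntf4 in surviving minus sham was 2.75 with only the 2 groups, where it passed; no sham array detected it, so this size is not a measured one. Ngfr in surviving minus dying was -1.68 to 0.60 with 1 array left out.

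Ntrk2 was, in surviving minus sham, 0.64 (75th percentile), 0.68 (quantile), 0.91 (normexp), 0.91 (added normexp), 0.83 (probes above background on all arrays), 0.74 (series table) and -0.54 to 0.26 with 1 array left out. In dying minus sham it was 0.25 (75th percentile), 0.69 (quantile), 0.16 (added normexp), 0.55 (probes above background on all arrays), 0.34 (series table) and -0.93 to 0.00216 with 1 array left out; in surviving minus dying -0.0159 (quantile), -0.0212 (RefSeq probes) and -0.14 to 0.79 with 1 array left out. In sham minus naive it was -0.15 (quantile), -0.14 (added normexp), -0.12 (probes above background on all arrays), -0.0202 (series table) and -0.34 to 1.03 with 1 array left out. Ntrk3 was, in surviving minus sham, 0.20 (75th percentile), 0.34 (quantile), 0.44 (normexp), 0.44 (added normexp), 0.40 (probes above background on all arrays) and 0.30 (series table). In dying minus sham it was -1.77, and passed, with detection on all arrays and with naive arrays without replicate 1, and -2.52 to -1.02 with 1 array left out.

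Among pathway genes, in surviving minus dying, normexp gave Sh2b2 0.80, Sos2 1.23, Nradd 0.68, Arhgdia 1.22, Npy 0.56 and Nr4a1 1.26, and the added normexp gave Sos2 0.0947, Arhgdia 0.0549 and Nr4a1 0.38. With 1 array left out they ran from -0.68 to 0.21 (Sos2), -1.84 to 0.15 (Pik3cb), -0.83 to 0.00534 (Nradd), -0.56 to 0.0389 (Arhgdia) and -0.81 to 0.0827 (Nr4a1). In sham minus naive, normexp gave Ptpn11 0.11, Irak1 0.26 and Mapk10 0.12, and the values with 1 array left out ran from -0.69 to 0.66 (Ptpn11), -0.81 to 0.31 (Akt1), -1.14 to 0.23 (Irak1) and -1.01 to 0.84 (Mapk10). With the added normexp the dying minus sham calls of Cpe, Grb2, Map2k1 and Homer1 were lost (limma adjusted p = 0.0534, 0.0520, 0.0753 and 0.0822). Those of Rhoa, Pik3cb and Egr3 were lost too, as was each surviving minus sham call of a named pathway gene.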
